A study of Mus musculus with 16 samples.

Results

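The genes of oxidative phosphorylation were examined as 1 group across the 3 groups of mice, with the 13 genes carried by the mitochondrial genome set beside the 90 carried by the nuclear genome. Members were chosen by gene name (mt-Nd, mt-Co, mt-Cytb and mt-Atp genes, and the Nduf, Sdh, Uqcr, Cox4 to Cox8 and Atp5 families) and by a count of 10 or more reads in at least 4 of the 16 libraries. This gave 103 genes of 41740 in the count tables, of which 22872 had a read in any library. The counts that chose the members are described here and support nothing. Of 107 rows with a matching name, 4 were left out for low counts: Cox7b2 and Cox8c had 0 reads throughout, Cox6a2 at most 4 and a second row of Atp5o at most 7. Just inside the limit were Cox8b, with 2 to 26 reads and 10 or more in 6 libraries, Ndufa4l2, with 3 to 30 reads, and Cox4i2, with 8 to 48 reads. All 103 members also passed the filter on low counts used in the tests.

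RNA was sequenced from the whole wall of the ileum of male STAM mice, which receive streptozotocin on day 2 of life and a high-fat diet from 4 weeks, and were studied at 20 weeks of age. Control-STAM-nonINS mice (n = 4) carried floxed insulin receptor alleles without Villin-Cre (written Vilin-Cre(-); InsR-flox in the labels) and received no insulin. Control-STAM-INS mice (n = 6) had the same genotype and received insulin, by the study's methods as insulin degludec from 6 weeks at up to 12 U/kg. The ieIRKO-STAM-INS mice (n = 6; Vilin-Cre(+); InsR-flox) received the same insulin and carried the Cre recombinase that deletes the receptor in intestinal epithelium, where the Villin promoter is active. Every group therefore shared streptozotocin, the diet and the floxed alleles, and no library came from ieIRKO mice without insulin. Since the whole wall was sampled, muscle, immune and stromal cells contribute to each value, and fewer cells of a type cannot be told apart from less RNA per cell.

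Oxidative phosphorylation is carried out in the inner mitochondrial membrane. Complexes I to IV pass electrons from NADH and succinate to oxygen. Complexes I, III and IV pump protons, and complex V, the ATP synthase, uses the proton gradient to make ATP. Complexes I, III, IV and V are built from subunits of both genomes, while complex II is encoded wholly in the nucleus. The mitochondrial genome is transcribed as long precursor RNAs from both strands that are cut into the single messengers, so the level of each messenger also depends on its processing and stability. In the intestine the absorptive epithelium is rich in mitochondria.

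The libraries held 13288018 to 22215382 counted reads. Levels are given as CPM, counts scaled to the size and composition of the library. The insulin receptor gene, Insr, measured 57.5 to 90.4 CPM where the label reads ieIRKO-STAM-INS, against 49.9 to 76.1 CPM in Control-STAM-INS, with overlapping libraries (log2 fold change 0.10 ± 0.13 (SE), adjusted p = 0.805, edgeR's quasi-likelihood test with Benjamini-Hochberg adjustment, used throughout). Both insulin-treated groups lay below the 88.3 to 116 CPM of untreated mice except for 1 library, and Insr was called lower in each (log2 fold change -0.75 in insulin-treated controls, adjusted p = 0.00275, and -0.65 in ieIRKO mice, adjusted p = 0.00582). With T cell markers as a covariate these were -0.37 and -0.22 and Insr was not called. The count covers the whole gene and all cells of the wall, so it does not check the deletion. Epithelial markers were abundant in every library, with summed levels of 14300 to 24116 CPM in Control-STAM-nonINS, 18164 to 22294 CPM in insulin-treated controls and 13695 to 21449 CPM in ieIRKO-STAM-INS. The libraries of ieIRKO-STAM-INS replicates 2 and 3 stood apart by B cell genes: Ms4a1 was at 80.3 and 37.4 CPM in them and at most 4.88 CPM in the other 14.

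Reads shared by neighbouring mitochondrial genes bear on how their counts can be read. The mt-Atp8 and mt-Atp6 messengers are 1 RNA in which the reading frames overlap, and mt-Nd4l and mt-Nd4 share another RNA in the same way. In the GRCm38 mitochondrial genome (GENCODE annotation, plus strand), mt-Atp8 (204 bases) ended 43 bases inside mt-Atp6 (681 bases) at chrM:7927-7969, and mt-Nd4l (297 bases) ended 7 bases inside mt-Nd4 (1378 bases), shown with the preceding bases of mt-Nd4l at chrM:10152-10173. The capitals mark the start codon of the second gene of each pair. The last 14 bases of mt-Nd5 (chrM:13552-13565) also lie in mt-Nd6 on the opposite strand, and mt-Atp6 and mt-Co3 share 1 base. Copies of mitochondrial sequence in the nuclear genome could also share reads with these genes, and how such reads were counted is not stated in the sources used here.
mt-Atp8 and mt-Atp6 overlap: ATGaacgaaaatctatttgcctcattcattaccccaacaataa
mt-Nd4l and mt-Nd4 overlap: tctcaacctactacaATGctaa

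The mitochondrially encoded members made up most of the reads on these genes. They held 5.21% to 6.54% of all counted reads in Control-STAM-nonINS, 4.37% to 5.45% in insulin-treated controls and 4.34% to 6.05% in ieIRKO-STAM-INS. The 90 nuclear encoded members together held 1.44% to 1.80% in every library of the 3 groups. Per length, mt-Co1, the catalytic subunit of complex IV, had the highest mean level over all libraries (11825 CPM per kb of exon), and mt-Nd4l, a small membrane subunit of complex I, the lowest of the mitochondrial genes (542 CPM per kb). The median level per length was 2454 CPM per kb over the 13 mitochondrial genes and 76.7 CPM per kb over the 88 nuclear members with a gene model.

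Among the nuclear members the levels per length spanned a wide range. The highest level was that of Cox6a1, the widely expressed isoform of complex IV subunit VIa, at 659 CPM per kb, followed among the leaders of each complex by Atp5b, the catalytic beta subunit of ATP synthase (369 CPM per kb), Uqcr10 of complex III (279 CPM per kb), Sdhd, a membrane anchor of complex II (166 CPM per kb), and Ndufa2, an accessory subunit of complex I (164 CPM per kb). The lowest was Ndufa4l2, a homologue of the complex IV subunit Ndufa4, at 0.949 CPM per kb. The 9 assembly genes had a median level of 5.74 CPM per kb, against 53.7 CPM per kb for the 36 nuclear subunits of complex I. Exon lengths were taken over all annotated transcripts, which lowers the level of genes with a rare long transcript. The SD of log2 CPM within groups was 0.11 to 0.24 for the mitochondrial members (median 0.16) and 0.08 to 0.58 for the nuclear members (median 0.14, highest for Cox8b), against a median of 0.24 over all genes tested.

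**Figure D1:**
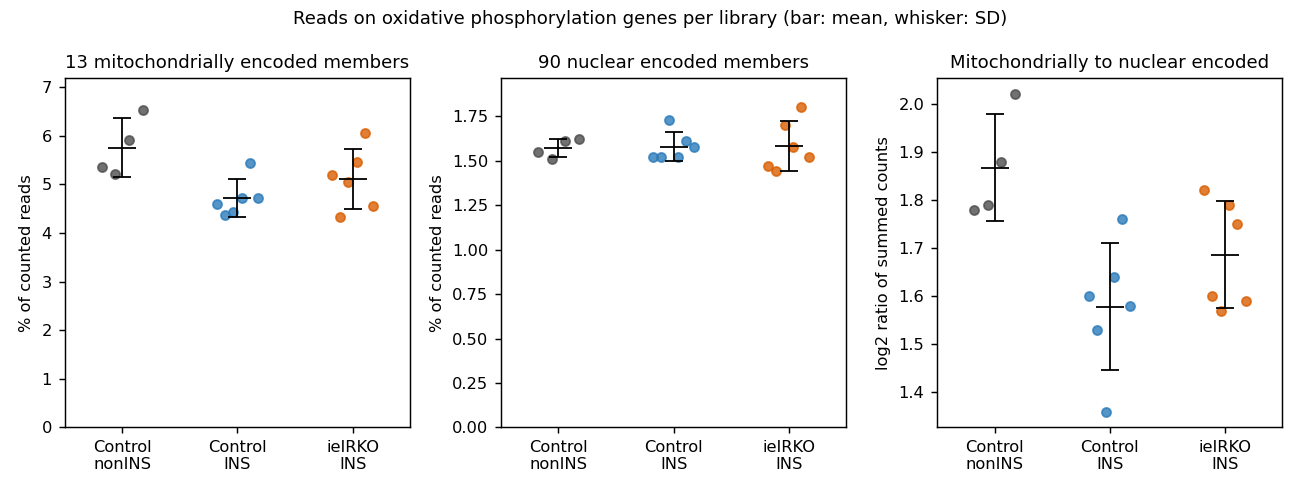
Share of all counted reads on the 13 mitochondrially encoded members (left) and the 90 nuclear encoded members (middle), in percent, and the log2 ratio of the first sum to the second (right), for each library of the 3 groups; bars are means and whiskers SD. The ratio lies at 1.78 to 2.02 in Control-STAM-nonINS and at 1.36 to 1.76 in Control-STAM-INS, while the nuclear share stays between 1.44% and 1.80% throughout.

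The balance between the genomes was described as a ratio of sums and as a ratio of medians. By the first, only the insulin-treated and untreated controls separated, and by the second all groups overlapped. The log2 ratio of summed mitochondrially to nuclear encoded counts was 1.78, 1.79, 1.88 and 2.02 in the 4 Control-STAM-nonINS libraries. It was 1.36 to 1.76 in Control-STAM-INS (median 1.59), so all 6 insulin-treated libraries lay below all 4 untreated ones, with a difference of means of -0.29. With the median over members in place of the sum, the difference was -0.15 and the libraries overlapped. In ieIRKO-STAM-INS the ratio was 1.57 to 1.82, overlapping both other groups. The sum of the mitochondrial members, scaled for library composition, was 55592 to 62633 CPM in Control-STAM-nonINS, 45558 to 53495 CPM in insulin-treated controls and 40808 to 54699 CPM in ieIRKO-STAM-INS. Both insulin-treated groups lay wholly below the untreated group on this scale, at 0.825 and 0.85 of its mean, whereas the unscaled shares of reads given above overlapped. The nuclear sum overlapped among all groups (13497 to 17867 CPM). These sums are descriptions and were not tested.

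Insulin treatment of control mice was first compared gene by gene, Control-STAM-INS against Control-STAM-nonINS. A gene was called when its adjusted p was under 0.05. Of the 13 mitochondrial members 3 were called lower and 0 higher, 12 had a lower estimate, and the median log2 fold change was -0.33. Of the 90 nuclear members 0 were called in either direction by edgeR, 50 had a higher and 40 a lower estimate, and the median was 0.01. Over all 15267 genes tested, 6.76% were called lower and 3.73% higher, with a median of 0.00. At an unadjusted p under 0.05 there were 7 mitochondrial members, all lower, and 7 nuclear members (4 higher and 3 lower), against 25.4% of all genes. DESeq2 called 6 mitochondrial members lower, and of the nuclear members 1 higher and 0 lower, where it called 7.99% of all genes lower and 5.66% higher. Whether the mitochondrial members differed from the nuclear members as a set was not tested.

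The 3 called genes belonged to complexes V, I and IV. The most reduced was mt-Atp8, a small membrane subunit of ATP synthase, at 166, 187, 198 and 167 CPM in the untreated libraries and 81.9 to 130 CPM with insulin (median 123), with no overlap. It fell by 0.66 on the log2 scale (SE 0.14, adjusted p = 0.00624, edgeR), and it stayed called when any 1 of the 16 libraries was left out. Per length, mt-Atp8 was at 660 CPM per kb and mt-Atp6, on the same RNA, at 6245 over all libraries. The 2 counts therefore do not measure that RNA alike, and mt-Atp6 gave -0.22 (adjusted p = 0.212, edgeR). With a covariate for T cell markers, described below, mt-Atp8 was not called (log2 fold change -0.57, adjusted p = 0.257, edgeR), nor was any other member. Those markers differed between these groups, so that fit cannot separate treatment from the markers. Next was mt-Nd5, a proton-pumping subunit of complex I, at 2580, 2499, 2405 and 2286 CPM without insulin and 1394 to 2154 CPM with it (median 1860). The groups did not overlap, and mt-Nd5 fell by 0.44 (log2; SE 0.13, adjusted p = 0.0348, edgeR). The complex IV core gene mt-Co3 was at 6847, 6970, 8583 and 8236 CPM without insulin and 5365 to 6280 CPM with it (median 5794), again with no overlap, and fell by 0.40 (log2; SE 0.12, adjusted p = 0.0404, edgeR). The call of mt-Nd5 was lost without Control-STAM-nonINS replicate 1, 2 or 3 or without Control-STAM-INS replicate 1, 3, 4 or 6 (log2 fold change -0.45 to -0.37), and that of mt-Co3 in 11 of the 16 such fits (log2 fold change -0.45 to -0.34), all but those without Control-STAM-nonINS replicate 2 or ieIRKO-STAM-INS replicate 1, 2, 5 or 6.

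None of the other 10 mitochondrial genes was called by edgeR. The remaining 2 core genes of complex IV gave log2 fold changes of -0.34 (SE 0.11, adjusted p = 0.0626) for mt-Co1 and -0.38 (SE 0.12, adjusted p = 0.0531) for mt-Co2. The level of mt-Co1 was 21202, 19561, 22598 and 22755 CPM without insulin and 16276 to 18414 CPM with it, and that of mt-Co2 was 7933, 7640, 9374 and 8853 CPM against 5326 to 7210 CPM. The libraries of the groups did not overlap for either gene. mt-Nd6, the complex I subunit read from the opposite strand to the other 12, gave -0.39 (SE 0.12, adjusted p = 0.0508, edgeR), with 683 to 841 CPM against 452 to 679 CPM. For mt-Atp6, the proton channel subunit of ATP synthase, the log2 fold change was -0.22 (adjusted p = 0.212), with 4522 to 5131 CPM against 3976 to 4472 CPM. In all, the libraries did not overlap for 7 of the 13 genes, each lower with insulin, and this held for 6.23% of all genes tested.

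The complex III subunit mt-Cytb and most complex I genes gave estimates close to 0. For mt-Cytb the levels were 3758 to 4794 CPM without and 3728 to 5061 CPM with insulin (log2 fold change 0.00 ± 0.12 (SE), adjusted p = 0.991, edgeR). The log2 fold change was -0.01 for mt-Nd2, -0.03 for mt-Nd4, -0.09 for mt-Nd1 and -0.11 for mt-Nd3, each with overlapping libraries. Of the smallest complex I gene, mt-Nd4l, the level was 149 to 200 CPM without and 109 to 171 CPM with insulin (log2 fold change -0.33, adjusted p = 0.118). The differences in log2 fold change among the 13 genes were not tested.

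**Figure D2:**
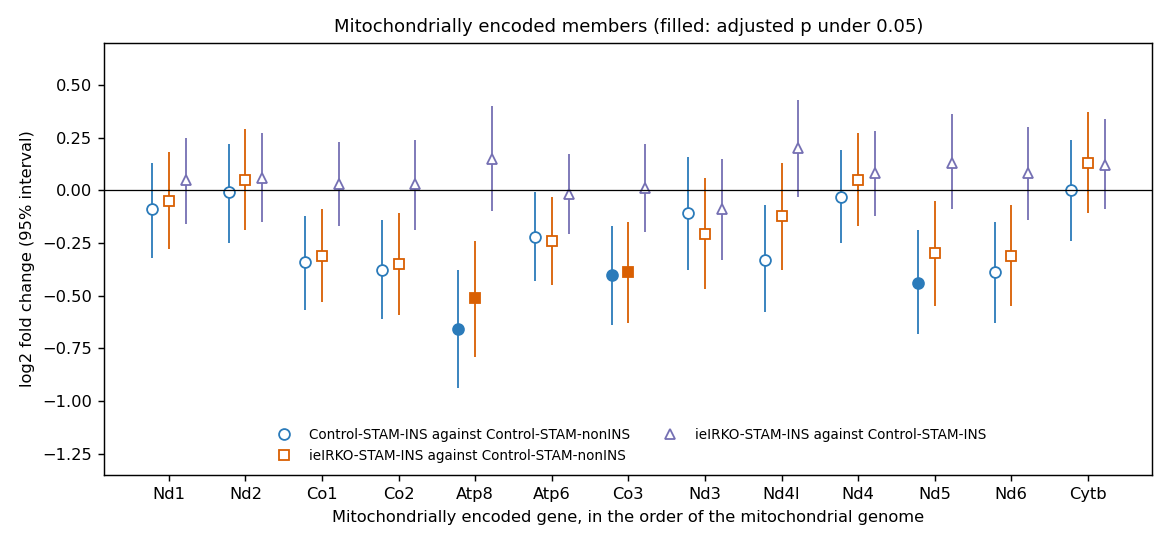
Log2 fold change with its 95% interval (vertical lines) of each mitochondrially encoded member in the 3 comparisons, in genome order; filled symbols have an adjusted p under 0.05 (edgeR). With insulin in control mice the estimates run from 0.00 (mt-Cytb) to -0.66 (mt-Atp8), and between the insulin-treated groups (triangles) from -0.09 to 0.20 with no gene called.

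Ratios between mitochondrial genes within a library do not depend on the scaling of the libraries. Counts of mt-Atp8 were 3.37% to 4.14% of those of mt-Atp6 in Control-STAM-nonINS and 2.03% to 3.26% in Control-STAM-INS, with no overlap and at 0.735 of the untreated mean. The pair lies on 1 RNA and shares the bases printed above; how reads in the shared bases were assigned is not stated in the sources used here. In ieIRKO-STAM-INS the ratio was 2.62% to 3.56% and overlapped both other groups. The corresponding pair of complex I, mt-Nd4l as a percentage of mt-Nd4, was 4.86% to 6.36%, 3.56% to 5.25% and 3.85% to 5.42% in the same order of groups and overlapped throughout. The ratio of mt-Nd5 to mt-Cytb, neighbours on the genome with mt-Nd6 between them on the other strand and overlapping mt-Nd5 by the 14 bases given above, was 0.518 to 0.638 in Control-STAM-nonINS, 0.343 to 0.516 in insulin-treated controls and 0.386 to 0.462 in ieIRKO-STAM-INS, so that both insulin-treated groups lay below the untreated group. The nearest libraries were at 0.516 and 0.518, and mt-Nd5 was itself called lower with insulin in control mice. The ratio of mt-Co1 to mt-Cytb was 4.08 to 6.06, 3.64 to 4.37 and 3.57 to 3.92 in the same order. It overlapped between untreated and insulin-treated controls.

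**Figure D3:**
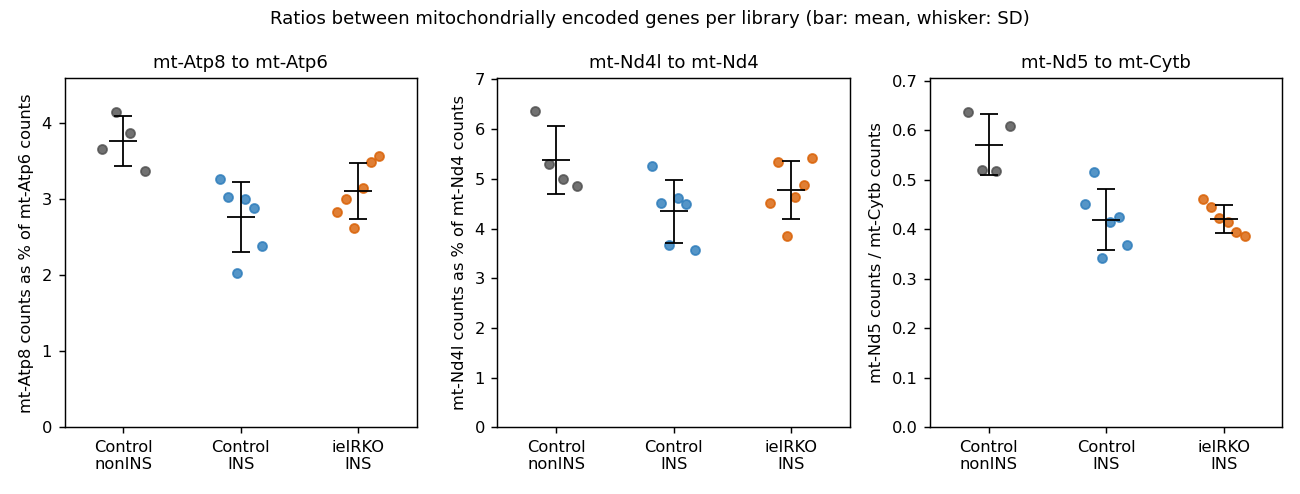
Ratios of counts between pairs of mitochondrially encoded genes in each library (left and middle in percent, right as a ratio); bars are means and whiskers SD. The mt-Atp8 to mt-Atp6 ratio reaches 3.26% with insulin in control mice and starts at 3.37% without, and the mt-Nd5 to mt-Cytb ratio is at most 0.516 in the insulin-treated groups and at least 0.518 in the untreated group.

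The make-up of the mitochondrial reads was compared as the share of each gene. mt-Co1 took 35.2% to 38.4% of these reads in Control-STAM-nonINS, 34.4% to 35.8% in insulin-treated controls and 33.9% to 36.1% in ieIRKO-STAM-INS, and was the largest share in each library. mt-Cytb took 6.34% to 8.62% in Control-STAM-nonINS, 8.18% to 9.46% in insulin-treated controls and 9.19% to 9.99% in ieIRKO-STAM-INS. The share of mt-Nd4 was 5.18% to 6.57%, 6.51% to 7.11% and 6.73% to 7.42%. For both genes the ieIRKO-STAM-INS libraries lay wholly above those of Control-STAM-nonINS. By level neither was called there (log2 fold change 0.13 for mt-Cytb and 0.05 for mt-Nd4, adjusted p = 0.518 and 0.796, edgeR). Against Control-STAM-nonINS, the share of mt-Co2 lay wholly lower in ieIRKO-STAM-INS (0.925 of the mean). That of mt-Atp8 lay wholly lower in insulin-treated controls (0.768 of the mean). The 2 mitochondrial ribosomal RNAs, mt-Rnr1 and mt-Rnr2, which lie upstream of the messengers and are not members, were not called in any comparison (summed level 1609 to 2634, 1965 to 2740 and 1413 to 2292 CPM in the order above), and the 22 transfer RNA genes were listed at 0.

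The nuclear members showed no called gene with insulin in any complex. The median log2 fold change was 0.01 over the 36 subunits of complex I, -0.01 over the 4 of complex II, -0.03 over the 8 of complex III, -0.03 over the 16 of complex IV, 0.02 over the 17 of complex V and 0.08 over the 9 assembly genes. All nuclear estimates lay between -0.65 (Cox8b) and 0.40. In complex II, which oxidises succinate, the flavoprotein Sdha was at 359 to 441 CPM without and 418 to 471 CPM with insulin (log2 fold change 0.09), Sdhb at 198 to 219 and 181 to 226 CPM (-0.04), Sdhc at 138 to 165 and 138 to 170 CPM (0.01), and Sdhd at medians of 216 and 208 CPM (-0.08). The only nuclear member whose libraries did not overlap, 1 of 90 against 4.40% of all genes that lay wholly higher, was Atp5g1, 1 of 3 genes for the same c subunit of the ATP synthase rotor, at 133, 116, 134 and 107 CPM without and 135 to 196 CPM with insulin (log2 fold change 0.32 ± 0.11 (SE), adjusted p = 0.0803, edgeR). Atp5g1 was the nuclear member that DESeq2 called.

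**Figure D4:**
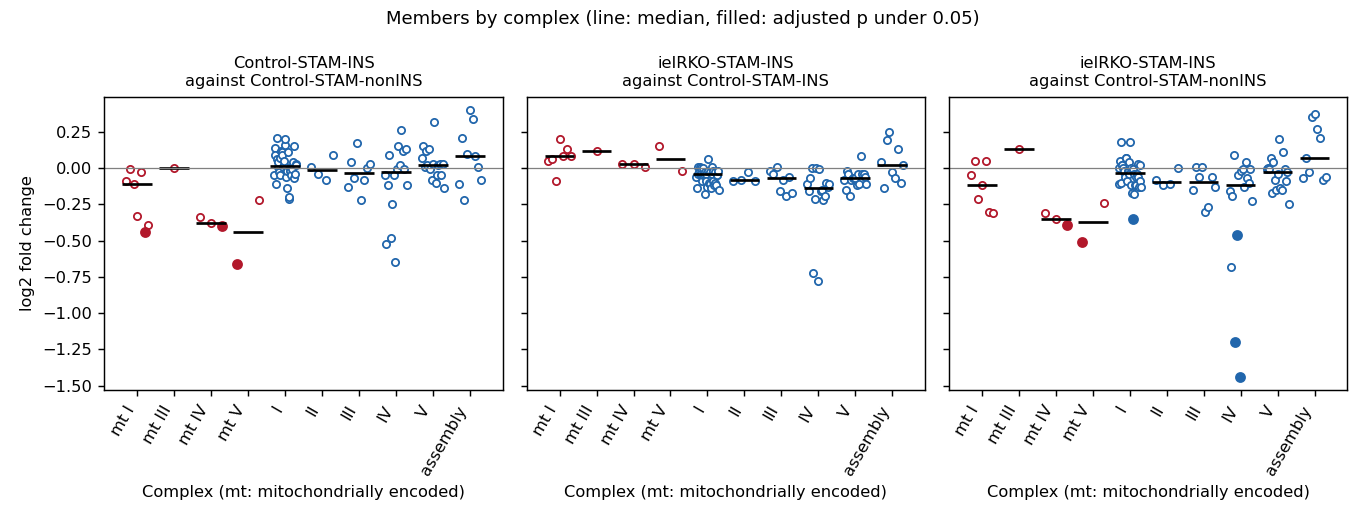
Log2 fold change of every member in the 3 comparisons, by complex and genome of origin (red, mitochondrially encoded, marked mt; blue, nuclear encoded); each point is 1 gene, lines are medians and filled points have an adjusted p under 0.05 (edgeR). With insulin in control mice the mitochondrial medians lie at -0.11 for complex I (7 genes), 0.00 for III (1 gene), -0.38 for IV (3 genes) and -0.44 for V (2 genes). The nuclear medians lie between -0.03 and 0.08.

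Loss of the epithelial insulin receptor was addressed by setting ieIRKO-STAM-INS mice against insulin-treated controls. No member was called by edgeR or by DESeq2, where 0.223% of all genes tested were called by edgeR and 0.883% of those with an adjusted p by DESeq2. At an unadjusted p under 0.05 there were 0 mitochondrial members and 1 nuclear member, Cox6b2, against 11.3% of all genes. The mitochondrial members had a median log2 fold change of 0.06, with 11 of 13 estimates higher, and the nuclear members a median of -0.07, with 77 of 90 estimates lower; the median over all genes was 0.02. All 8 epithelial markers also had lower estimates in this comparison (median log2 fold change -0.22, 0 called), with a summed level at 0.866 of the mean of insulin-treated controls and overlapping libraries, and their part in the levels of the members was not tested. When libraries were scaled by their total counts alone, the nuclear median was 0.01 and that of all genes 0.09, both moving upward together, and nothing is read from the sign of the nuclear median. For mt-Atp8 the log2 fold change was 0.15 (95% interval -0.10 to 0.40), and for mt-Co3 0.01 with an SE of 0.11. Cox6b2 had 5.39 to 8.94 CPM in Control-STAM-INS (median 7.87) and 3.76 to 6.06 CPM in ieIRKO-STAM-INS (median 4.31), with overlapping libraries (log2 fold change -0.72, 95% interval -1.12 to -0.33, adjusted p = 0.26).

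The make-up of the c subunit genes of ATP synthase was described as the share of each gene and was not tested. Atp5g2 gave 13.1% to 16.5% of the reads on the 3 genes in Control-STAM-INS, and 16.8% to 19.2% in ieIRKO-STAM-INS, without overlap, the nearest libraries being at 16.5% and 16.8%. In Control-STAM-nonINS the share was 15.9% to 19.2%, overlapping both. The most abundant of the 3, Atp5g3, gave 63.7% to 65.9% without insulin, 62.7% to 68.4% in insulin-treated controls and 61.2% to 63.6% in ieIRKO mice. By level, Atp5g2 had a log2 fold change of 0.08 and Atp5g3 of -0.15 between the insulin-treated groups, and neither was called (adjusted p = 0.785 and 0.544, edgeR).

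The ieIRKO-STAM-INS mice were finally compared with Control-STAM-nonINS, a contrast in which insulin and genotype differ together and which shares its reference libraries with the insulin comparison. Of the mitochondrial members 2 were called lower and 0 higher, and the median log2 fold change was -0.24. Of the nuclear members 4 were called lower and 0 higher, with a median of -0.05; 1 of the 4, Cox8b, is a member only through control libraries and is given below as a description. Over all genes, 7.59% were called lower and 5.74% higher, with a median of 0.01. At an unadjusted p under 0.05 there were 7 mitochondrial and 12 nuclear members, against 29.4% of all genes, and DESeq2 called 5 mitochondrial and 5 nuclear members lower, where it called 9.05% of all genes lower. Libraries lay wholly below those of Control-STAM-nonINS for 4 mitochondrial and 3 nuclear members, against 4.76% of all genes. Of the 8 epithelial markers 5 had lower estimates here (median -0.04) and 1 was called lower, Fabp6, the ileal bile acid binding protein (log2 fold change -0.59, adjusted p = 0.0338, edgeR).

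The 2 mitochondrial genes were again mt-Atp8 and mt-Co3. In ieIRKO-STAM-INS mt-Atp8 was at 97.8 to 161 CPM (median 127), below all 4 untreated libraries, and fell by 0.51 (log2; SE 0.14, adjusted p = 0.0230, edgeR). mt-Co3 was at 4585 to 6749 CPM (median 5833), also below all 4, and fell by 0.39 (log2; SE 0.12, adjusted p = 0.0394, edgeR). The gene mt-Nd5 was at 1666 to 2399 CPM, overlapping the untreated libraries, with a log2 fold change of -0.30 (adjusted p = 0.121). Without both B cell-rich libraries, ieIRKO-STAM-INS replicates 2 and 3, 0 mitochondrial members were called, with a median of -0.17, and 1 nuclear member, Cox6b2, while the calls in either direction over all genes went from 2036 of 15267 to 1270 of 15256. The call of mt-Atp8 was also lost without Control-STAM-nonINS replicate 2 or 3 or ieIRKO-STAM-INS replicate 3 alone (log2 fold change -0.48 to -0.46), and that of mt-Co3 in 9 of the 16 fits that left out 1 library (-0.44 to -0.32), all but those without Control-STAM-nonINS replicate 2, Control-STAM-INS replicate 1, 2, 3 or 6 or ieIRKO-STAM-INS replicate 1 or 5.

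Among the nuclear genes called were isoforms of complex IV subunits known from particular tissues. Cox6b2, the isoform of subunit VIb best known from testis, was at 8.37, 9.49, 17.8 and 7.26 CPM in Control-STAM-nonINS and 3.76 to 6.06 CPM in ieIRKO-STAM-INS, with no overlap. It fell by 1.20 on the log2 scale (SE 0.22, adjusted p = 0.00203, edgeR) and stayed called without any 1 library (log2 fold change -1.36 to -0.84), but not with the T cell covariate (-1.34, adjusted p = 0.294). Cox7a1, the heart and skeletal muscle isoform of subunit VIIa, was at 31.1, 41.9, 37.4 and 32.8 CPM against 19.5 to 33.6 CPM (median 26.6), overlapping, and fell by 0.46 (log2; SE 0.14, adjusted p = 0.0395, edgeR). Cox8b, the isoform of subunit VIII known from muscle and brown fat, was at 0.737, 0.314, 1.45 and 0.612 CPM against 0.135 to 0.431 CPM, overlapping, from 2 to 26 reads a library (log2 fold change -1.44 ± 0.46 (SE), adjusted p = 0.0468, edgeR). Cox8b reached 10 reads in no ieIRKO-STAM-INS library (at most 7), so it met the rule only through the groups in which it was higher, and its difference supports nothing. The call of Cox7a1 was lost without Control-STAM-nonINS replicate 2 or 3, Control-STAM-INS replicate 5 or ieIRKO-STAM-INS replicate 2, 3 or 5 (log2 fold change -0.46 to -0.37). That of Cox8b was lost in all such fits but those without Control-STAM-nonINS replicate 2, Control-STAM-INS replicate 5 or 6 or ieIRKO-STAM-INS replicate 6, and its log2 fold change was -0.95 without Control-STAM-nonINS replicate 3, its highest library.

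The widely expressed partners of these isoforms were not called. Cox6b1 was at 209 to 289 CPM in Control-STAM-nonINS and 215 to 263 CPM in ieIRKO-STAM-INS (log2 fold change -0.05), Cox7a2 at 123 to 150 and 103 to 140 CPM (-0.13), and Cox8a at 327 to 411 and 322 to 397 CPM (-0.01). Reads of Cox6b2 were 3.22% to 6.15% of those of Cox6b1 without insulin, 1.96% to 3.61% in insulin-treated controls and 1.46% to 2.36% in ieIRKO-STAM-INS. The ieIRKO-STAM-INS libraries lay wholly below Control-STAM-nonINS, at 0.459 of its mean, and overlapped Control-STAM-INS. Cox4i2, an isoform of subunit IV known from lung, had a log2 fold change of -0.68 that was not called (adjusted p = 0.106), beside -0.02 for its partner Cox4i1, and the pair Ndufa4 and Ndufa4l2 gave 0.09 and 0.04. The fourth called gene, Ndufa6, an accessory subunit of complex I, was at 154, 165, 185 and 205 CPM against 113 to 156 CPM (median 140), overlapping, and fell by 0.35 (log2; SE 0.11, adjusted p = 0.0452, edgeR). Among the fits that left out 1 library, Ndufa6 kept its call only without Control-STAM-nonINS replicate 1, Control-STAM-INS replicate 2 or 3 or ieIRKO-STAM-INS replicate 4 or 6, and the log2 fold change over those that lost it was -0.38 to -0.28.

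**Figure D5:**
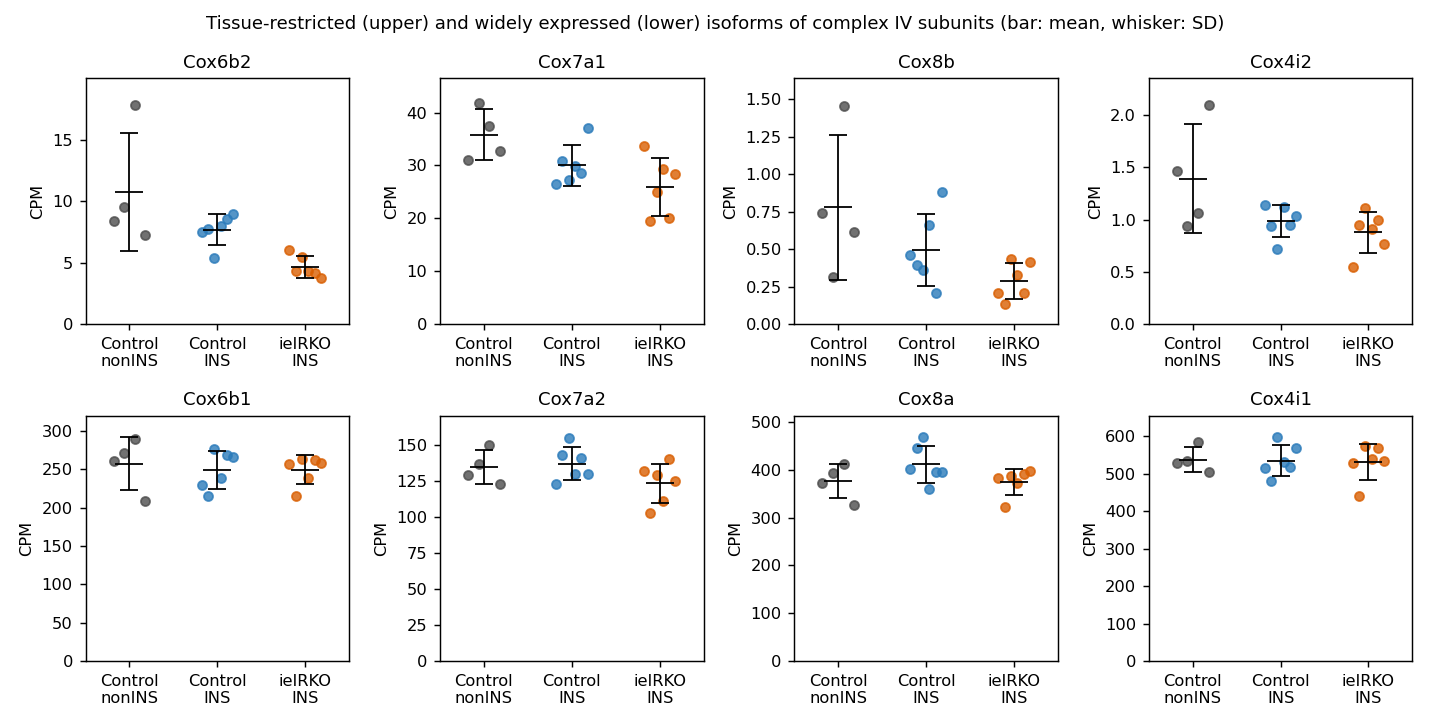
Level in CPM of 4 tissue-restricted isoforms of complex IV subunits (upper row) and of their widely expressed partners (lower row) in each library; bars are means and whiskers SD, and each axis starts at 0. Cox6b2 is at most 6.06 CPM in ieIRKO-STAM-INS and at least 7.26 CPM in Control-STAM-nonINS, while Cox6b1 overlaps among the groups.

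Markers of muscle and fat were examined beside these isoforms. Smooth muscle markers summed to 2762 to 3238 CPM in Control-STAM-nonINS, 2253 to 3506 CPM in insulin-treated controls and 2464 to 3506 CPM in ieIRKO-STAM-INS. Skeletal muscle markers had summed medians of 14.3, 24.9 and 20.7 CPM, those of insulin-treated controls lying wholly above the untreated libraries, with the fast myosin gene Myh4 at 0 in all. The insulin-treated controls were at 2.55 times the untreated mean, and at 1.69 times without replicate 6, which reached 104 CPM. Brown fat markers summed to at most 1.37 CPM, with Ucp1 at 0 in both insulin-treated groups. Adipocyte markers summed to 24.4 to 287, 36.9 to 180 and 8.86 to 116 CPM, with 0 of 5 genes called in any comparison. Their part in the levels of the isoforms was not tested.

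Other cell markers moved with the groups. With insulin in control mice, all 5 blood cell markers were called lower (median log2 fold change -2.14), with summed levels of 73.1 to 514 CPM without and 32.3 to 95.4 CPM with insulin. In ieIRKO-STAM-INS against untreated mice all 5 were also called lower (median log2 fold change -2.03, summed level 36.9 to 104 CPM). The 1 pancreatic acinar gene tested was called lower in both comparisons with untreated mice (log2 fold change -0.89 and -0.84), with summed acinar markers of 5.54 to 9.23 CPM without insulin against 3.12 to 4.85 and 3.44 to 4.50 CPM. T cell markers summed to 12.3 to 22.6 CPM without and 20.6 to 35.8 CPM with insulin, and to 21.7 to 51.4 CPM in ieIRKO-STAM-INS; 3 of the 4 tested were called higher in both comparisons with the untreated mice, and Trac was listed at 0. With the mean of Cd3e, Cd3g and Cd8a as a covariate, 0 members of either genome were called in the comparisons with untreated mice (mitochondrial median log2 fold change -0.19 with insulin and -0.14 for ieIRKO-STAM-INS). The estimates in that fit were -0.57 and -0.41 for mt-Atp8 in these 2 comparisons, -0.41 and -0.40 for mt-Co3, -0.20 for mt-Nd5 in the first (-0.44 without the covariate), and -1.34 for Cox6b2, -0.41 for Ndufa6 and -0.16 for Cox7a1 in the second (-0.46 for Cox7a1 without it). The number of genes called among all tested went from 1602 to 22 with insulin and from 2036 to 3 for ieIRKO-STAM-INS against untreated controls. Libraries of 3 of the 4 tested T cell genes lay wholly above the untreated ones with insulin, and of 2 in ieIRKO-STAM-INS. The covariate thus differs between the groups compared, and the lost calls cannot be told apart from a loss of that contrast. B and plasma cell markers summed to 1655 to 3115 CPM in ieIRKO-STAM-INS, wholly above the 959 to 1541 CPM of insulin-treated controls (1.67 times the mean) and overlapping the 718 to 1771 CPM of untreated mice. Of their 6 genes 0 were called by edgeR and 4 by DESeq2 between the insulin-treated groups, all 6 had an unadjusted p under 0.05 there (median log2 fold change 2.01), and 3 were called higher against untreated mice. By the summed B and plasma cell markers, ieIRKO-STAM-INS replicates 2 and 3, named B cell-rich above, were at 1655 and 2014 CPM. The 3115 CPM was that of replicate 5. The part of these cells in the levels of the members was not tested.

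The promoters of the nuclear members were searched for 2 short motifs of factors known to act on respiratory genes. RefSeq promoter sequences (GRCm38.p6, 300 bases each) were matched for 73 of the 90 nuclear members, with 78 start sites. GCGCATGC, the core of the palindromic site of NRF1, was present on either strand in 15.4% of the 78 and in 2.71% of all 32851 promoters. CCGGAAG, a core of ETS family sites such as that of GABP, was present in 24.4% and 8.86%. Each motif was counted whether or not it overlapped a match of the other, and the shares are descriptions. Ndufa6 held the first motif, and Cox6b2 and Cox7a1 held neither, as shown here for Ndufa6 and Cox6b2 by the bases just upstream of the gene models with the motif in capitals.
Ndufa6, chr15:82354323-82354441, minus strand: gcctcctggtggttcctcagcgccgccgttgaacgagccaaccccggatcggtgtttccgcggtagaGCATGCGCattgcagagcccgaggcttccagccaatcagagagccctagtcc
Cox6b2, chr7:4753095-4753244, minus strand: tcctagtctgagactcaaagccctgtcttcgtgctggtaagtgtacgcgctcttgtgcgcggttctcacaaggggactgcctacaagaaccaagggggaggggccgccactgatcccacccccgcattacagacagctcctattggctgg

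Genes that serve the respiratory chain outside the members were counted from lists of pathway genes, to be read against the 6.76% of all genes called lower and 3.73% called higher with insulin. With insulin in control mice, 1 of 38 assembly factors was called higher (Sco1, a copper chaperone of complex IV, log2 fold change 0.45, adjusted p = 0.0254) and 1 lower (Atpaf1, an assembly factor of ATP synthase, -0.37, adjusted p = 0.0484, edgeR). In the citric acid cycle 3 of 14 genes were called lower, led by Idh2, the mitochondrial NADP-dependent isocitrate dehydrogenase (log2 fold change -0.57, adjusted p = 0.00595, edgeR), and 0 higher. Of 21 genes of mitochondrial transcription and RNA handling, 1 was called higher and 0 lower: Fastkd2, an RNA-binding protein of the matrix, was at 8.35 to 9.62 CPM without and 11.4 to 14.8 CPM with insulin (log2 fold change 0.61, adjusted p = 0.0102, edgeR). Of 78 genes of the mitochondrial ribosome 2 were called higher and 1 lower, with Mrpl34 at 0.41 and Mrpl45 at -0.35. Among 15 genes for electron carriers, exchangers and outer membrane proteins, 1 was called higher (Coq7 of ubiquinone synthesis, 0.36) and 2 lower, led by Etfb, a subunit of the electron transfer flavoprotein (-0.38). Of the 16 fits that left out 1 library, Atpaf1 was called in 4, Coq7 in 5, Etfb in 12, and Sco1 and Mrpl45 in 13. Mrpl34 was called in 15, and Idh2 and Fastkd2 in all 16. With the T cell covariate none of these named genes was called.

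None of the 9 nuclear regulators was called in any of the 3 comparisons by edgeR; at an unadjusted p under 0.05 there were 2, 3 and 4 of them in the order in which the comparisons are given here, against 25.4%, 11.3% and 29.4% of all genes. Ppargc1a, a coactivator of mitochondrial gene expression, had log2 fold changes of -0.26, -0.54 and -0.80 in that order (adjusted p = 0.59, 0.426 and 0.0603, edgeR). With the T cell covariate its estimates in the comparisons with untreated mice turned positive, at 0.70 with insulin and 0.27 for ieIRKO-STAM-INS, neither called. DESeq2 called 0, 0 and 2 of the 9, with Ppargc1a lower and Pprc1 higher in the last comparison. The transcription factor of the mitochondrial genome, Tfam, had -0.14, 0.06 and -0.09, and the mitochondrial RNA polymerase Polrmt -0.10, 0.11 and 0.00. The nuclear factors Nrf1 and Esrra were not called, nor were Ppargc1b, cytochrome c (Cycs) and citrate synthase (Cs). Between the insulin-treated groups no gene of these lists was called by edgeR or DESeq2; at an unadjusted p under 0.05 there were 3 assembly factors, 1 citric acid cycle gene, 2 carriers, 5 ribosomal genes and 0 transcription genes, against 11.3% of all genes. Against Control-STAM-nonINS, where 7.59% of all genes were called lower and 5.74% higher, ieIRKO-STAM-INS had 4 of 14 citric acid cycle genes called lower (Idh2 -0.54), 2 of 21 transcription genes higher (Fastkd2 0.73), 7 of 78 ribosomal genes higher and 0 lower (Mrps26 0.45), 1 of 38 assembly factors lower (Atpaf1 -0.43) and 1 of 15 carriers lower (Etfb -0.34).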

How the data were processed

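Total RNA of the ileal wall was sequenced with a strand-marking kit. The authors deposited 1 table of counts per gene and library, made on the mouse genome GRCm38 and not normalized; whether counting used the strand, and how reads that match several genes were treated, is not stated in the sources used here. Samples were grouped by the labels, and members and lists were chosen with earlier results of these data known. Each fit used all genes and the 3 groups together (edgeR 4.0.16, R 4.3.3): filterByExpr, TMM scaling, robust quasi-likelihood test and Benjamini-Hochberg adjustment over 15267 genes, with a threshold of 0.05. CPM values are scaled by TMM, and 95% intervals are normal intervals from the SE. The labels tie no library to a litter, cage or day, so p-values measure the spread between these mice. Totals and shares were computed per library, also vary between mice and are given without a p-value. Named genes were all mitochondrial members, called nuclear members (up to 10 per direction and comparison), the highest of each complex per length, isoform pairs, complex II, and the leading called gene of each pathway list with 8 preset regulators and Insr. Alternatives were DESeq2 1.42.0, other scalings and filters, 2-group fits, a replicate block and leaving out libraries; 2 settings were added after seeing the data (leaving out both B cell-rich libraries, and a T cell covariate). Only these motif spellings are given, chosen after other spellings were searched. The fits were tested on simulated data.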

Additional observations from a re-analysis of the deposited data

Results flagged for a closer look

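Among 38 measures (the named members and their sums and ratios), 114 tests for a single library far from the rest of its group picked out 6, where chance picks out about 1 in 20 (5.70 here). The value given is the gap to the nearest library divided by the range of the group, on the log2 CPM scale for genes. In Control-STAM-INS, replicate 5 was high for mt-Atp6 (0.708) and mt-Nd2 (0.69), replicate 2 was low for mt-Co2 (0.672) and replicate 3 was low relative to its group for Cox6b2 (0.653). In ieIRKO-STAM-INS, replicate 2, 1 of the B cell-rich libraries, was low for Cox4i1 (0.693) and Cox8a (0.678).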

How the results depend on the processing

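Counts of called members depended on the setting, and their directions did not. With insulin in control mice, 3 mitochondrial members were called lower; DESeq2 called 6, the T cell covariate left 0 (that fit called 22 of all genes in place of 1602), and leaving out 1 library gave 1 to 5. Nuclear members called higher were 0, but 1 with DESeq2. For ieIRKO-STAM-INS mice against untreated controls, the 2 mitochondrial calls became 5 with DESeq2, 1 with upper-quartile scaling, without a filter and in the 2-group fit, 0 with total counts, with the T cell covariate and without both B cell-rich libraries, and 0 to 3 when 1 library was left out. The 4 nuclear calls there became 2 with upper-quartile scaling, total counts and no filter, 1 in the 2-group fit and without both B cell-rich libraries, 0 with the T cell covariate and 1 to 4 when 1 library was left out. These counts stand beside calls in either direction over all genes, which in that comparison were 2036, and became 2665 with DESeq2, 2032 with upper-quartile scaling, 1915 with total counts, 1670 without a filter, 1038 in the 2-group fit, 1270 without both B cell-rich libraries, 3 with the T cell covariate and 1093 to 2274 when 1 library was left out. With insulin in control mice they were 1602, and became 2083 with DESeq2 and 824 to 1877 when 1 library was left out. Between the insulin-treated groups no setting called a member. The median of all genes moved most with total counts, to 0.09. As log2 ratios of medians over members in place of sums, the balance was 4.54, 4.39 and 4.49 against 1.87, 1.58 and 1.69 in untreated controls, insulin-treated controls and ieIRKO mice, and the groups then overlapped; leaving out 1 library gave 1.82 to 1.89, 1.54 to 1.62 and 1.66 to 1.71. With a replicate block, 4 and 3 mitochondrial and 0 and 3 nuclear members were called lower in the comparisons with Control-STAM-nonINS, where 1397 and 1615 of all genes were called; same-numbered libraries deviated together only weakly (correlations -0.0943 to 0.179 over 14 pairs), so they were taken to share only a number. The causes of these differences were not tested. Depth limits Cox8b, Ndufa4l2 and Cox4i2, which had fewer than 50 reads in each library.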
